A study of Arabidopsis thaliana with 15 samples.

Results

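The CLE genes encode small secreted signalling peptides of plants. The genes described here were the nuclear protein coding genes of Arabidopsis thaliana whose symbol or synonym is CLE followed by digits only, together with CLAVATA3 (CLV3). This rule took 31 of 27444 nuclear protein coding genes and used no measured value. The series mapped a pair of Polycomb histone marks, H2AK121ub (a ubiquitin on a lysine of histone H2A) and H3K27me3 (methylation of a lysine of histone H3), by chromatin immunoprecipitation and sequencing (ChIP-seq) of whole seedlings. Its 15 libraries, all from strain Col-0 at 10 days after germination, were 14 ChIP libraries in 7 groups of 2 replicates and 1 wild-type input. H2AK121ub was profiled in the wild type, in emf1 (the emf1-2 mutant of a plant-specific Polycomb protein) and in the ring1ab double mutant of PRC1 ring finger proteins. H3K27me3 was profiled in the same genotypes and in lhp1, a mutant of a protein that binds this mark. The values below come from the 2 consensus peak lists of the untreated wild type, 16310 peaks for H2AK121ub and 4367 for H3K27me3, while mutant libraries were not used.

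Each list holds the regions found in replicates, with no signal height beside them, so every value below is a position, a length or a count with no replicate spread, and read depth is unknown. The study's methods also combine wild-type data of an earlier seedling age with these, and whether the lists hold that age as well is not settled. Whole seedlings mix many cell types of shoot and root, so a gene with both marks may carry them in the same or in different cells, and a gene without a peak is a gene without a call. Exact copies elsewhere in the genome hardly touch these genes. In 30 of them every 100-base word of gene and upstream window occurs once in the genome, and in CLE21 98.72% of the words do. Copies with a mismatch, and the parts of peaks outside gene and window, were not examined.

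A CLE precursor is a short protein with a signal sequence for secretion and a conserved stretch near its C-terminus, from which the active peptide is cut. The peptide moves between cells and is bound by receptor kinases with leucine-rich repeats, by which it limits or maintains stem cells in shoot, root and vascular meristems, and some members carry signals of nutrient or water status. PRC1 sets H2AK121ub and PRC2 sets H3K27me3, and both complexes keep developmental genes repressed outside the cells and stages where they act.

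CLE precursors resemble each other mainly in the peptide itself, so its codons are shown first, for CLV3 and for the members whose peptide is identical to that of another. A fixed 12-residue pattern was searched in the last 60 residues of each precursor and found in 25 of the 31. It was not found in CLE16, CLE17, CLE18, CLE20, CLE22 and CLE43. This says only that these letters are absent from that stretch, and the rest of the precursor was not searched. The 25 hold 20 distinct peptides, of which 22 members start with arginine and 3 (CLE41, CLE42, CLE44) with histidine. The 36 bases of each, read from the RefSeq copy of the TAIR10 genome, follow 5′ to 3′ on the coding strand. Capitals mark the bases that differ from the first member of the same set.
CLV3: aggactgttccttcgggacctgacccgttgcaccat
CLE1: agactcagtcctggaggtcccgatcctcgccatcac
CLE3: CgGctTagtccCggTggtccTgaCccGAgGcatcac
CLE4: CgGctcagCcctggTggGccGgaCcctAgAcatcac
CLE5: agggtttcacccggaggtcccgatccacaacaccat
CLE6: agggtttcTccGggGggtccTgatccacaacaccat
CLE9: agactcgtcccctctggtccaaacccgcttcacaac
CLE10: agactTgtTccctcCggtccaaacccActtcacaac
CLE41: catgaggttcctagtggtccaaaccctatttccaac
CLE44: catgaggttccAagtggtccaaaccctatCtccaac
CLE3 and CLE4 differed from CLE1 at 10 and 9 of the 36 bases, CLE6 from CLE5 at 4, CLE10 from CLE9 at 4 and CLE44 from CLE41 at 2, while the encoded peptide was the same within each set.

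Most CLE genes carried both marks. A gene was called marked when at least 1 bp of its body, or of the 750 bp before its transcription start site (TSS), lay under a peak. By this rule 18 of the 31 genes (58.1%) had both marks, against 24.2% of all nuclear protein coding genes. H2AK121ub alone was called on 7 genes (22.6%, against 43.9%), H3K27me3 alone on 4 (12.9%, against 4.93%) and neither mark on 2 (6.45%, against 26.9%). H3K27me3 was thus called on 22 genes (71.0%, against 29.2%) and H2AK121ub on 25 (80.6%, against 68.1%). The share with H3K27me3 stood further from its background than the share with H2AK121ub.

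CLE genes are short, with a median length of 829 bp and a range from 306 bp (CLE18) to 2999 bp (CLE11), against a median of 2078 bp over all protein coding genes. A second background was therefore formed from the 3041 protein coding genes whose length lies in the interquartile range of the CLE genes. Among these, 36.3% had both marks, 34.5% only H2AK121ub, 6.35% only H3K27me3 and 22.9% neither. H2AK121ub was called on 70.8% of them and H3K27me3 on 42.7%. The CLE genes stood above genes of similar length for both marks together and for H3K27me3, though by a smaller margin than above all genes. This background runs from 698 to 1129 bp, while the CLE shares include shorter and longer members, so the match in length is partial.

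**Figure D1:**
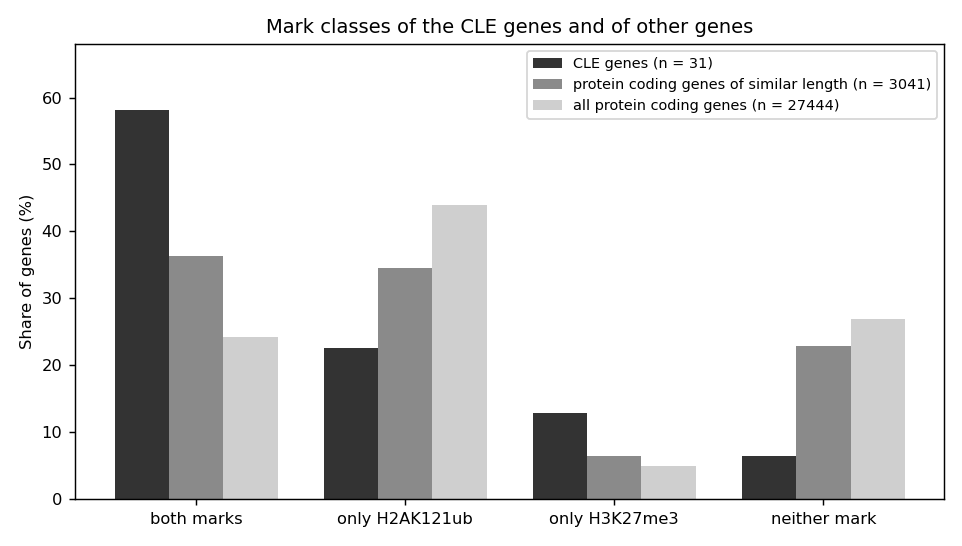
Share of genes (%) in each mark class for the 31 CLE genes, the 3041 protein coding genes of similar length and all 27444 protein coding genes. Both marks were called on 58.1% of the CLE genes, against 36.3% and 24.2%, and neither mark on 6.45%, against 22.9% and 26.9%.

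The 18 genes with both marks were CLV3, CLE2, CLE3, CLE5, CLE6, CLE9, CLE10, CLE11, CLE12, CLE13, CLE14, CLE17, CLE21, CLE26, CLE27, CLE41, CLE42 and CLE44. Those with only H2AK121ub were CLE1, CLE16, CLE20, CLE22, CLE25, CLE40 and CLE43, those with only H3K27me3 were CLE4, CLE7, CLE8 and CLE19, and those with neither were CLE18 and CLE45. Gene length overlapped between the classes, with medians of 840.5 bp for both marks, 829 bp for H2AK121ub alone and 560 bp for H3K27me3 alone. Of the 15 members on chromosome 1, 9 had both marks, and of the 7 on chromosome 2, 4 did.

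Where a CLE gene carried a mark, the mark usually spanned most of the gene. The median share of the gene body under H2AK121ub was 83.1% over all 31 genes, against 15.8% over all protein coding genes and 60.6% over genes of similar length. For H3K27me3 the median was 94.9%, against 0% in both backgrounds. Counting only genes with the mark, the medians were 93.6% for H2AK121ub (37.9% over all genes, 81.6% at similar length) and 100% for H3K27me3 (88.8% and 100%). Beside genes of similar length, marked CLE genes thus had somewhat higher cover by H2AK121ub and an equal median for H3K27me3.

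**Figure D2:**
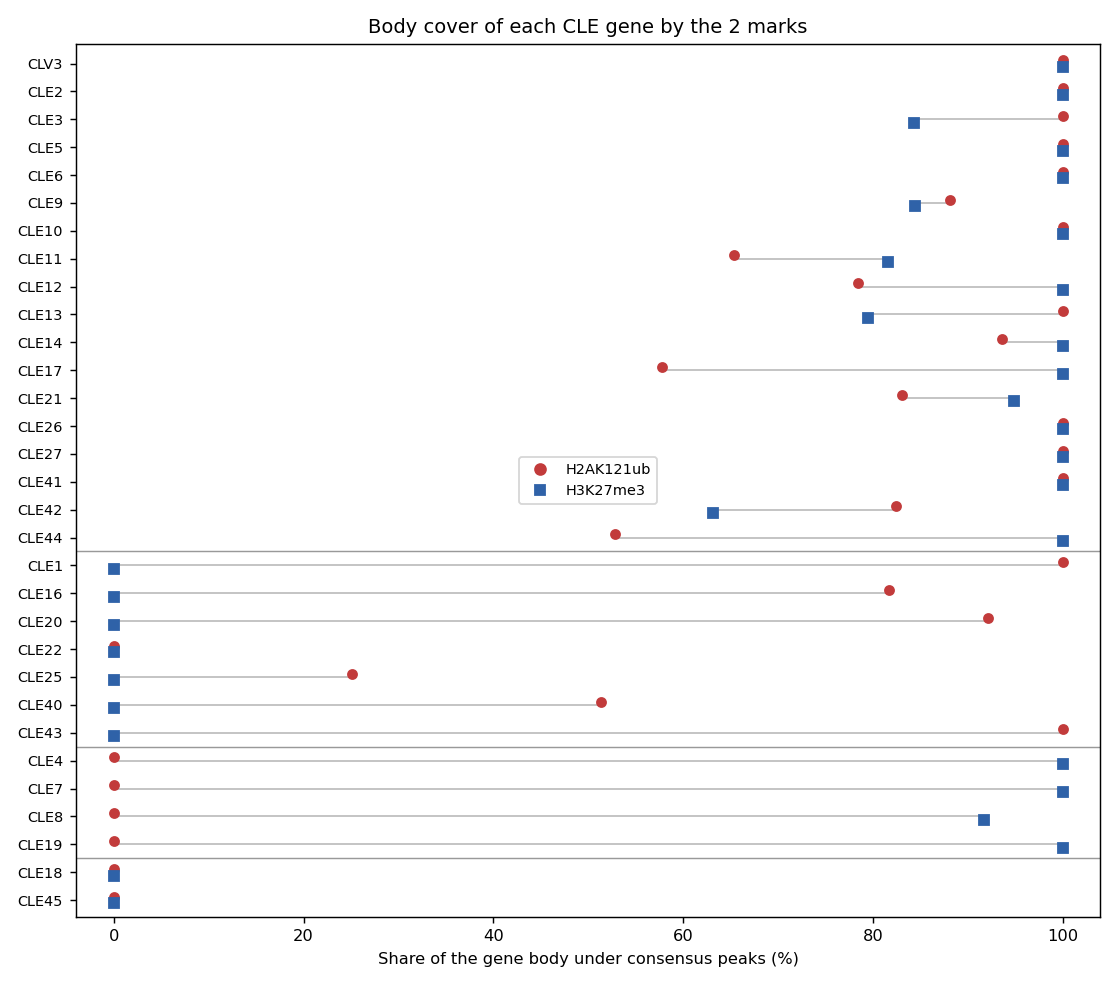
Share of the gene body under consensus peaks (%), for each of the 31 CLE genes, with circles for H2AK121ub and squares for H3K27me3 and grey lines between the classes (from the top: both marks, only H2AK121ub, only H3K27me3, neither mark). All 18 genes with both marks had at least 52.8% of the body under H2AK121ub and at least 63.2% under H3K27me3, and 8 had the whole body under both.

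A whole gene lay inside 1 H2AK121ub peak in 12 of the 31 (38.7%, against 8.33% of all genes and 19.5% of genes of similar length). The same held for H3K27me3 in 15 (48.4%, against 12.2% and 24.5%). Read over the coding span from start to stop codon, the H2AK121ub count was 22 (71.0%, against 16.8% and 38.5%) and the H3K27me3 count 21 (67.7%, against 14.9% and 30.0%). In 8 genes, CLV3, CLE2, CLE5, CLE6, CLE10, CLE26, CLE27 and CLE41, the whole body was under both marks, which held for 3.32% of all genes and 8.39% of genes of similar length. The stretch of gene and upstream window under both marks ran from 375 bp in CLE3 to 2801 bp in CLE26, with a median of 988.5 bp over the 18 genes.

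The peptide codons themselves were mostly under both marks. Of the 25 genes with the pattern, 19 had all 36 bases under H2AK121ub, 21 under H3K27me3 and 17 under both. These counts have no background of their own. The nearest is the whole coding span inside 1 H2AK121ub peak, in 16.8% of all genes and 38.5% at similar length. For H3K27me3 these shares were 14.9% and 30.0%. CLE40 had H2AK121ub on the 5′ part of the gene and not on these codons. The coding span from start to stop codon was under H2AK121ub for a median of 100%, against 13.3% over all genes and 79.2% at similar length. For H3K27me3 the median was 100%, against 0% in both backgrounds.

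Both marks covered the start codon in more CLE genes than the TSS. The TSS lay under H2AK121ub in 15 genes (48.4%, against 30.2% of all genes and 39.3% at similar length) and under H3K27me3 in 17 (54.8%, against 17.7% and 31.1%). In 9 genes, CLE11, CLE12, CLE14, CLE16, CLE17, CLE20, CLE21, CLE25 and CLE42, the H2AK121ub peak began downstream of the TSS, by 34 to 1037 bp with a median of 130 bp, and in all 9 it covered the start codon. The H3K27me3 peak began downstream of the TSS in 5 of 22 genes, CLE8, CLE9, CLE11, CLE13 and CLE42. CLE8 is annotated from its start codon, so its TSS here is that codon. The share of other genes with a peak that begins past the TSS was not counted. In both backgrounds too the H2AK121ub share rose past the TSS. Over all genes it went from 30.2% to 51.2% at 300 bp downstream, and at similar length from 39.3% to 60.8%. H3K27me3 went from 17.7% to 20.0% and from 31.1% to 36.3%. The start codon was under H2AK121ub in 24 genes (77.4%, against 46.1% and 53.2%). It was under H3K27me3 in 21 (67.7%, against 19.2% and 34.2%).

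**Figure D3:**
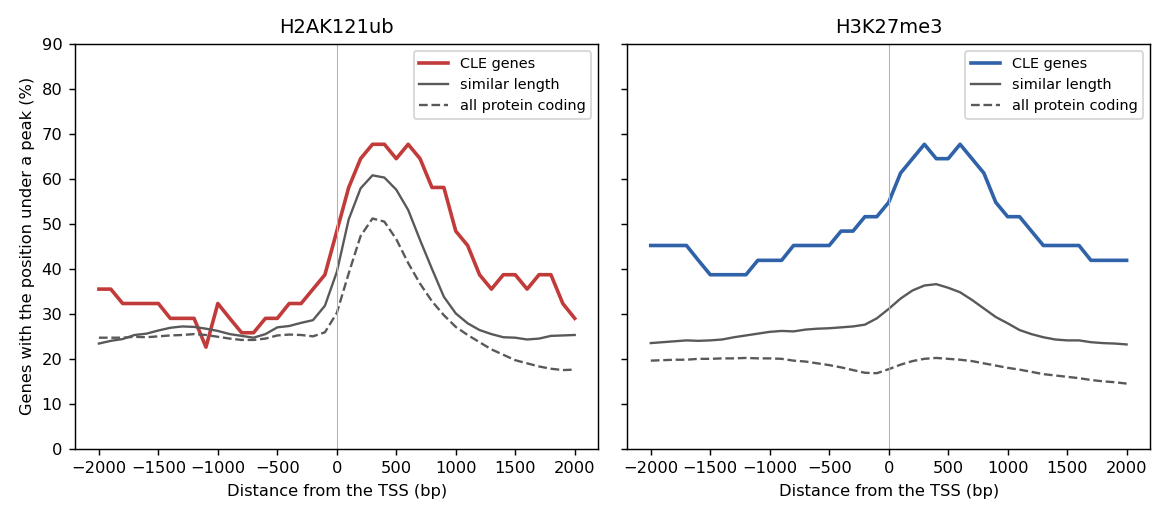
Share of genes (%) whose position at a given distance from the TSS lies under a peak, read every 100 bp in the direction of transcription, for the 31 CLE genes (coloured), genes of similar length (solid grey) and all protein coding genes (dashed). At 300 bp downstream the CLE genes reached 67.7% for both marks, against 60.8% and 51.2% for H2AK121ub and 36.3% and 20.0% for H3K27me3.

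Upstream of the TSS the shares of CLE genes under each mark were lower than at the TSS, with no steady fall over distance. H2AK121ub was at 22.6% at 1100 bp upstream, and H3K27me3 at 38.7% at 1500 bp upstream. At 2000 bp upstream, H2AK121ub lay on 35.5% of the CLE genes, against 24.7% of all genes and 23.4% at similar length. H3K27me3 lay on 45.2%, against 19.6% and 23.5%. Of the 750 bp upstream window, the median CLE gene had 5.33% under H2AK121ub and 33.2% under H3K27me3, and the median over all genes was 0% for each.

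The genes are short, and most peaks ran past 1 or both of their ends. The H3K27me3 peaks reached past the 5′ end in 17 of 22 genes, by 54 to 22540 bp with a median of 3522 bp, and past the 3′ end in 17, by 132 to 16682 bp with a median of 2396 bp. The H2AK121ub peaks on a gene body reached past the 5′ end in 15 of 24 genes, by 40 to 3381 bp with a median of 680 bp, while the peak of CLE22 lay wholly upstream. They reached past the 3′ end in 18, by 10 to 5261 bp with a median of 512.5 bp. These values are per gene, so a peak shared by several genes enters once for each of them. This applies to the H3K27me3 peak of CLE4, CLE5, CLE6 and CLE7 and to the H2AK121ub peak of CLE5 and CLE6. Medians with each peak entered once were not computed. The overhangs of other genes were not counted, so these counts and medians have no background. By the medians per gene, H2AK121ub ended closer to the CLE genes on either side.

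**Figure D4:**
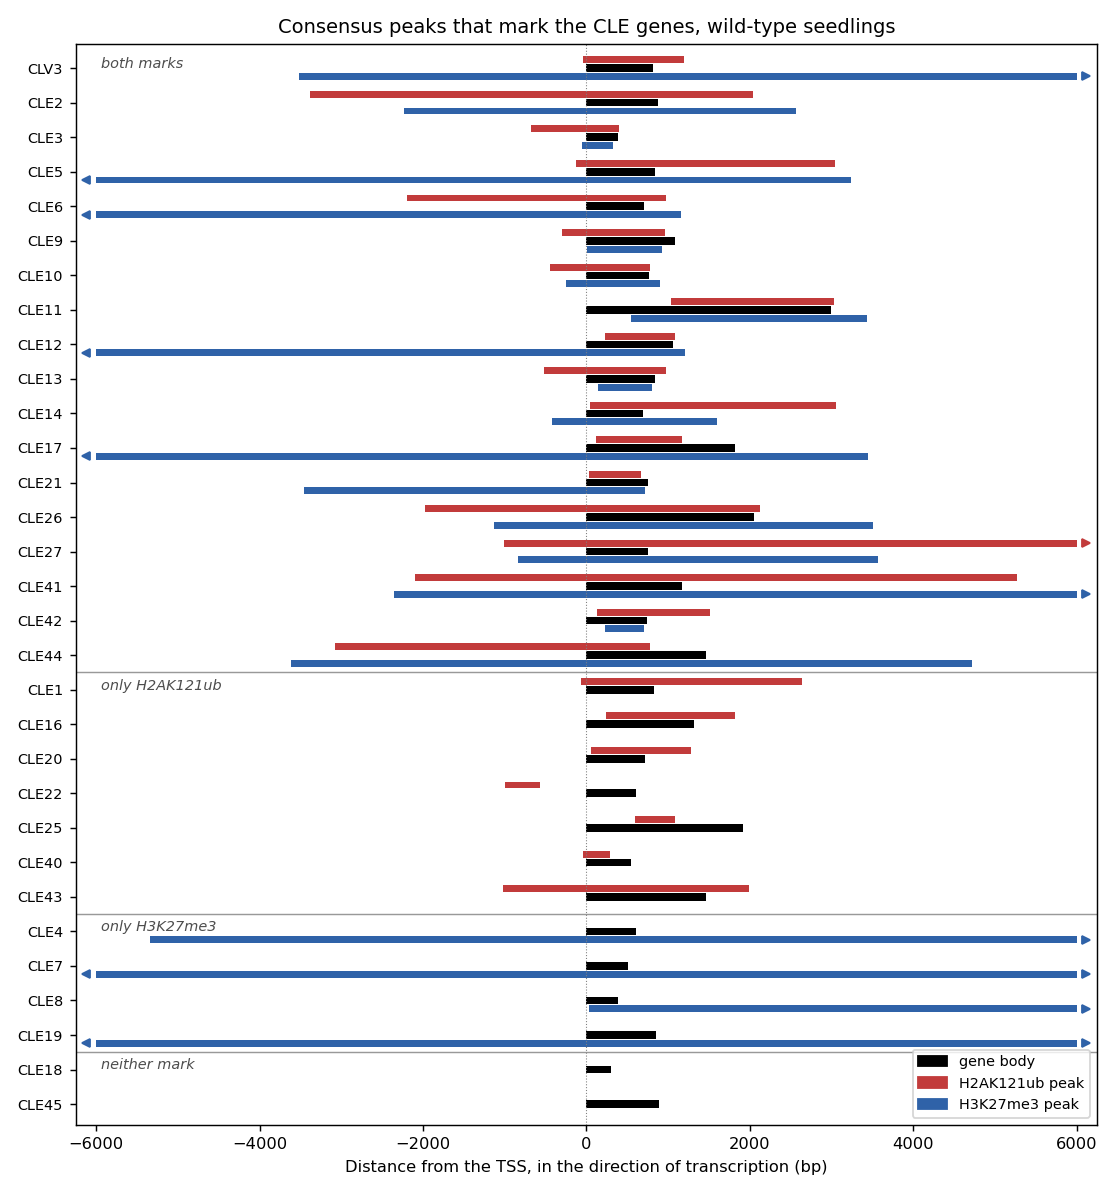
Peaks that mark each CLE gene, drawn to scale by distance from the TSS (bp) in the direction of transcription, with the gene body in black, H2AK121ub in red above it and H3K27me3 in blue below it. Peaks that run past 6000 bp are cut off with an arrowhead, and the longest H3K27me3 overhang was 22540 bp, upstream of CLE12.

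The 25 genes with H2AK121ub were marked by 24 distinct peaks and the 22 with H3K27me3 by 19. The median H2AK121ub peak was 1440 bp (323 to 7369 bp), against 978 bp in the whole list and 1048 bp among peaks that mark a protein coding gene. The median H3K27me3 peak was 4641 bp (375 to 23741 bp), against 2925 bp and 3050.5 bp. H3K27me3 peaks of at least 10000 bp made up 7 of the 19 (36.8%), against 9.60% of those on protein coding genes, while none of the 24 H2AK121ub peaks was that long. A long peak can meet more genes, so peaks reached by way of a gene set lean towards long ones. The backgrounds counted each peak once, however many genes it met. The part of this in the differences of length was not tested. Relative to the gene, H2AK121ub peaks measured 0.251 to 9.27 gene lengths (median 1.78), and H3K27me3 peaks 0.632 to 44.2 (median 5.75). No other protein coding gene was reached by 16 of the 24 H2AK121ub peaks and by 9 of the 19 H3K27me3 peaks. The matching share among peaks on other protein coding genes was not counted.

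**Figure D5:**
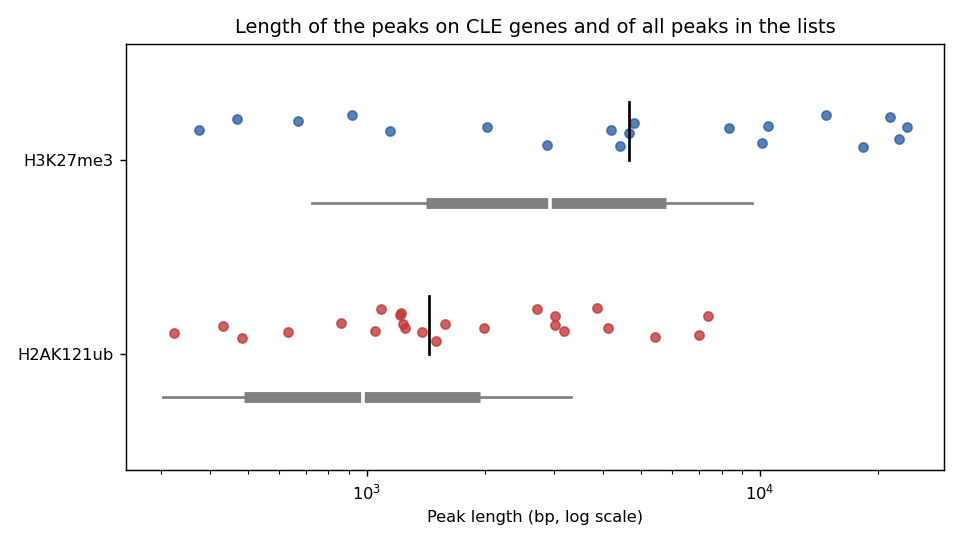
Length of the peaks on CLE genes (bp, log scale), 1 point per distinct peak and a black line at their median, over the grey bar of the whole list (thick, interquartile range; thin, 10th to 90th percentile; white line, median). The CLE peaks had medians of 1440 bp for H2AK121ub and 4641 bp for H3K27me3, and 7 H3K27me3 peaks were at least 10000 bp.

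In each of the 18 genes with both marks there was 1 peak of each, and the peaks nested in 14. The H2AK121ub peak lay inside the H3K27me3 peak in 9 of the 18, CLV3, CLE5, CLE6, CLE11, CLE12, CLE17, CLE21, CLE41 and CLE44. Among all protein coding genes with 1 peak of each mark this held for 37.5%. CLE5 and CLE6 lie under the same peaks, so their nesting was counted for each gene. The H3K27me3 peak lay inside the H2AK121ub peak in 5 (27.8%, against 18.4%), CLE3, CLE9, CLE13, CLE27 and CLE42. Only part of each peak was shared in 4 (22.2%, against 38.5%), CLE2, CLE10, CLE14 and CLE26.

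CLV3 is the signal by which shoot stem cells restrain the stem cell promoting factor WUSCHEL through the receptor CLV1. The gene (chr2:11664978-11665797 in TAIR10, as for all positions here, minus strand, AT2G27250) lay whole under both marks. Its H2AK121ub peak (chr2:11664602-11665839) was 1238 bp long and ended 42 bp past the 5′ end and 376 bp past the 3′ end. Its H3K27me3 peak (chr2:11654566-11669319) was 14754 bp long, or 18.0 gene lengths. It ran 3522 bp past the 5′ end and 10412 bp past the 3′ end, to AT2G27240. H2AK121ub was thus a narrow peak over the gene, inside a wide H3K27me3 stretch.

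CLE40 is the CLV3-like signal of the root meristem, where it acts through ACR4 and CLV1. Unlike CLV3, it had no H3K27me3, and the nearest peak of that mark lay 21071 bp from the gene and its upstream window. Its H2AK121ub peak (chr5:4109502-4109824) was 323 bp long, the shortest on any member, and covered 51.4% of the gene (chr5:4109234-4109784). In the transcript read for each member, only CLV3 and CLE40 have 3 coding exons, CLE25 has 2 and the other 28 have 1. The annotated coding span of CLE26 is wider than the transcript read.

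CLE16 and CLE17, which have also been linked to the shoot stem cell niche, differed from each other. CLE17 carried both marks, with an H2AK121ub peak of 1052 bp over 57.8% of the gene. Its H3K27me3 peak of 21479 bp (chr1:26709524-26731002) ran 18031 bp upstream, across 7 other protein coding genes, among them MLP28, MLP31, MLP34 and MLP43. CLE16 had H2AK121ub alone, a peak of 1582 bp over 81.7% of the gene, and its nearest H3K27me3 peak was 2102 bp away.

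CLE41 and CLE44 encode the same peptide, TDIF, which signals from phloem to the vascular cambium through the receptor PXY, and CLE42 encodes a close relative of it. These 3 genes are the members whose peptide starts with histidine, and all 3 carried both marks. At CLE41 (chr3:9046293-9047463) the H2AK121ub peak (chr3:9044196-9051564) was 7369 bp long, the longest on any CLE gene. The H3K27me3 peak there (chr3:9043938-9054467) was 10530 bp and ran 7004 bp past the 3′ end, across AT3G24780 and AT3G24790.

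CLE44 (chr4:7661792-7663261, minus strand) had a different layout. Its H2AK121ub peak of 3858 bp (chr4:7662486-7666343) ran 3082 bp upstream and stopped 694 bp short of the 3′ end, so 52.8% of the body was covered. Its H3K27me3 peak of 8335 bp (chr4:7658539-7666873) covered the whole gene. CLE42 (chr2:14733975-14734714) had a short H3K27me3 peak of 468 bp (chr2:14734206-14734673) inside an H2AK121ub peak of 1381 bp (chr2:14734105-14735485). Within this group the H3K27me3 peak therefore ranged from 468 to 10530 bp around genes whose peptides are identical or nearly so.

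CLE9 and CLE10, which encode identical peptides that act in xylem formation, CLE9 also in the stomatal lineage, each carried both marks. At CLE9 (chr1:9191503-9192590) the peaks were 1256 bp for H2AK121ub (chr1:9191206-9192461) and 919 bp for H3K27me3 (chr1:9191512-9192430). At CLE10 (chr1:26061774-26062536) they were 1223 bp (chr1:26061324-26062546) and 1144 bp (chr1:26061525-26062668). None of these 4 peaks reached another protein coding gene. The H2AK121ub peak began 297 bp upstream of CLE9 and 450 bp upstream of CLE10, and the H3K27me3 peak began 9 bp inside CLE9 and 249 bp upstream of CLE10. CLE10 was whole under both marks, while CLE9 had 88.1% of its body under H2AK121ub and 84.5% under H3K27me3.

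Signals of the phloem and of long distance fell in 3 classes. CLE45, which represses protophloem differentiation through the receptor BAM3, had neither mark (chr1:26178042-26178925), with the nearest H2AK121ub peak 1865 bp and the nearest H3K27me3 peak 3498 bp away. CLE25, a root-to-shoot signal of water shortage, had only an H2AK121ub peak of 483 bp (chr3:10670564-10671046) inside the gene (chr3:10669725-10671645). That peak covered 25.1% of the body and left both ends free, by 599 bp at the 5′ end and 839 bp at the 3′ end. CLE26, which acts on root protophloem, was in contrast whole under both marks, with peaks of 4107 and 4641 bp. These 3 genes were picked for their known roles, and 3 genes are no basis for a statement about phloem peptides at large.

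The genes with only H3K27me3 all lay in peaks of more than 10000 bp. CLE8, a signal of the early embryo and endosperm, is 385 bp long (chr1:25411312-25411696, minus strand). It sat at the border of a 10137 bp peak (chr1:25401528-25411664), which began 32 bp inside the gene and ran 9784 bp past its 3′ end across TEL2, AT1G67750 and AT1G67760. Its nearest H2AK121ub peak was 966 bp from the gene and upstream window. CLE19, a signal in embryo, endosperm and pollen, lay whole inside an 18312 bp peak (chr3:8757247-8775558). That peak ran 11599 bp upstream and 5863 bp downstream of the gene (chr3:8768846-8769695), across NCED6 and AT3G24230, and the nearest H2AK121ub peak was 1127 bp away.

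The other pair with only H3K27me3, CLE4 and CLE7, belongs to the tandem group CLE4, CLE7, CLE5 and CLE6, which spans 16839 bp. All 4 genes lay whole inside 1 H3K27me3 peak of 22631 bp (chr2:13232680-13255310), which reached no protein coding gene outside the group. H2AK121ub covered 14.0% of this peak, as 1 peak of 3174 bp (chr2:13251950-13255123) over CLE5 (chr2:13252076-13252914) and CLE6 (chr2:13254152-13254859). The gap between CLE7 and CLE5 is 10219 bp. CLE4 (chr2:13238021-13238628) and CLE7 (chr2:13241345-13241856) had no H2AK121ub peak within 8408 and 10094 bp of gene and upstream window. The shared H3K27me3 peak thus held a pair of genes with H2AK121ub and a pair with no call of it. Without these 4 genes, 16 of the other 27 had both marks and 2 only H3K27me3.

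Identical peptides did not imply a shared mark class. CLE5 and CLE6, CLE9 and CLE10, and CLE41 and CLE44 each agreed in having both marks, and CLE5 and CLE6 are neighbours under the same peaks. CLE1, CLE3 and CLE4, peptide genes known to respond to nitrogen supply, fell in 3 different classes. CLE1 (chr1:27508444-27509272) had only H2AK121ub, in a 2706 bp peak (chr1:27506638-27509343) that covered the gene and reached AT1G73160. CLE3 (chr1:1905918-1906298) had H2AK121ub over 1085 bp (chr1:1905238-1906322) and H3K27me3 over 375 bp (chr1:1905864-1906238), the shortest H3K27me3 peak on any member. CLE4 lay in the long H3K27me3 peak of the tandem group. The codons printed above were under H2AK121ub in CLE1 and CLE3, and under H3K27me3 in CLE3 and CLE4.

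CLE12 had the longest H3K27me3 peak of the family, 23741 bp (chr1:25840486-25864226), which ran 22540 bp upstream across TCP12, a repressor of branching, and AT1G68810. Its H2AK121ub peak was 859 bp and covered 78.4% of the gene. CLE27 and CLE2 had the longest H2AK121ub peaks after CLE41. At CLE27 the peak of 7021 bp (chr3:9480907-9487927) ran 5261 bp past the 3′ end to HMT-1, a methyltransferase gene, and held an H3K27me3 peak of 4411 bp (chr3:9483355-9487765). At CLE2, a further nitrogen-responsive gene, the H2AK121ub peak of 5419 bp (chr4:10208196-10213614) reached 3 other protein coding genes and the H3K27me3 peak of 4790 bp (chr4:10209348-10214137) reached 2.

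The remaining members with both marks carried peaks of moderate size. In CLE11, CLE13, CLE14 and CLE21 the H2AK121ub peaks were 1994, 1499, 3017 and 630 bp long and covered 65.4%, 100%, 93.6% and 83.1% of the body. Their H3K27me3 peaks were 2884, 669, 2020 and 4179 bp and covered 81.6%, 79.5%, 100% and 94.9%. In these genes cover of the body was thus at least 65.4% for either mark, across peaks of 630 to 4179 bp.

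The members with a weak or missing call were few. CLE22 had no peak on the gene, and its class rested on 179 bp of a 431 bp H2AK121ub peak in the upstream window. CLE18, the shortest member, is annotated with its coding span alone (chr1:24628530-24628835). It had neither mark, and its nearest peaks were 1874 bp (H2AK121ub) and 8096 bp (H3K27me3) away. CLE20 and CLE43 had H2AK121ub over 92.1% and 100% of the body in peaks of 1219 and 3011 bp, and the nearest H3K27me3 peak to CLE43 was only 883 bp from its upstream window or gene. CLE22 changed to neither mark when the body alone was read or at least 200 bp of overlap was required, and both CLE22 and CLE25 did so when at least 50% of the body had to be covered.

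A pair of motifs known as binding sites of factors that recruit PRC2 in Arabidopsis was counted in the promoters, from 250 bp before to 50 bp after the TSS, on both strands. The GAGA motif (GAGAGA) was present in 8 of 31 CLE promoters (25.8%), CLV3, CLE6, CLE8, CLE11, CLE14, CLE16, CLE21 and CLE26, against 29.2% of all protein coding promoters and 27.8% of those of genes with both marks. The telobox (AAACCCTA) was present in none of the 31, against 6.22% of all promoters. The share with GAGAGA was close to the background, and no match says only that these letters are not in this window.

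Most of the receptors and other partners of the CLE peptides carried H2AK121ub alone. Of 35 pathway genes asked for by symbol, 28 were matched, with a median length of 3538 bp. Of these, 18 had only H2AK121ub (64.3%, against 43.9% of all protein coding genes) and 7 of the 28 had both marks, a share close to the 24.2% of all genes. H3K27me3 alone was called on 1 (3.57%, against 4.93%) and neither mark on 2 (7.14%, against 26.9%). Their median body cover was 25.1% for H2AK121ub and 0% for H3K27me3. Their length differs from that of the CLE genes, and the median H2AK121ub cover was 15.8% over all genes against 60.6% over those of CLE length. The part of length in this difference was not tested.

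Among the 11 receptor kinases, 8 had only H2AK121ub. Body cover in these 8 was highest in CLV1 (46.7%) and PXY (43.8%), and lay at 18.9% in BAM1, 17.8% in BAM2, 16.6% in HSL1, 12.8% in ACR4 and 5.87% in PXL2. PXL1 had the mark in the upstream window and not on the body. SKM1, the receptor of CLE45 in pollen tubes, was the receptor with both marks, at 74.5% for H2AK121ub and 100% for H3K27me3. BAM3 had only H3K27me3, in the upstream window and not on the body, and RPK2 had neither. Of 6 coreceptors asked for, only 2 were matched. CLV2 had both marks by the gene rule with no H3K27me3 on the body, and CRN had only H2AK121ub.

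Of 4 genes of peptide processing or modification asked for, only 1 was matched. This was SOL1, a carboxypeptidase that trims CLE precursors, with both marks in the upstream window and neither on the body. Of 6 downstream signalling genes, 5 had only H2AK121ub, among them OPS, a phloem regulator, with 93.2% of its body under the mark. BIN2, a kinase activated by TDIF signalling, had both marks over 26.7% and 29.4% of the body. Of the 8 target transcription factors, the stem cell regulators WUS, WOX5 and WOX4 were wholly covered by both marks. WOX14, HAM1, HAM3 and HAM4 had only H2AK121ub, over 68.2%, 100%, 82.0% and 88.3% of the body, and HAM2 had neither. These 3 homeobox genes, of the shoot, root and cambium niches, were thus covered as completely as CLV3 and CLE41, and none of the 11 receptors was.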

How the data were processed

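Chromatin of whole seedlings was profiled by ChIP-seq for both marks, and samples were grouped by their titles. According to the methods and processing notes, the authors used Bowtie to map the reads (TAIR10) and MACS2 to call peaks against the input, and kept regions shared by replicates. The deposited lists give chromosome, start and end, with no score or signal, so peaks had equal weight. Versions are not given in the sources used here.

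Genes and sequence came from the RefSeq copy of this assembly, whose 5 nuclear chromosomes have the same lengths, and positions count from 1. Symbols came from the RefSeq gene table. The peptide pattern was searched in the last 60 residues of each translated precursor. Python 3.11.15, numpy 2.4.6 and pandas 2.3.3 were used, and the overlap functions were tested on simulated data. No test was run, because each mark has 1 pooled list. The members, the gene lists, the named genes and the alternatives were chosen with earlier results of these data known, and the background of similar length was added after the values were seen.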

Additional observations from a re-analysis of the deposited data

How the results depend on the processing

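The 12 main values were recomputed under other gene regions, overlaps, peak filters, member rules and gene ends, in 84 combinations. A minimum peak length of 200 bp, merging of peaks across gaps of at most 500 bp and the use of official symbols alone changed neither the genes nor their peaks, so their values could not move. Of the 48 combinations under the other settings, 44 stayed within 1.5 times the reported value. This limit is wide. It counts a rise of genes with neither mark from 2 to 3 as kept, and the median body covers, at most 100%, could not rise past it. Genes with neither mark rose from 2 to 4 when at least 50% of the body had to be covered. With the coding span in place of the annotated gene, 22 genes in place of 12 lay whole inside 1 H2AK121ub peak and 24 in place of 15 had their start under it. Without the 4 tandem members, an alternative chosen after seeing the data, 2 in place of 4 had only H3K27me3. Over the 5 other alternatives that reread the class of all 31 members, CLE22 and CLE25 changed class and 29 did not. The 2 settings that leave members out do not bear on the class of a single gene. Both marks were called on 26.6% of protein coding genes no longer than the longest member and on 20.7% of all annotated genes. A stricter part of the lists by score was not run, since they carry none. No paired analysis was possible because each mark has 1 list that pools the replicates.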
